A study of Cavia porcellus with 12 samples.

Results

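miR-22 is a microRNA cut from both arms of a single hairpin precursor, and it is described as enriched in heart and skeletal muscle and as a promoter of cardiac hypertrophy. A microRNA guides Argonaute to messenger RNAs through its seed, the stretch near the 5′ end that pairs with the target, and shortening or tailing at the 3′ end gives isoforms that share the seed. For miR-22 the 3p arm is the usual guide strand, and the 5p arm is the passenger strand. Its known targets in heart include Sirt1, a deacetylase, and Hdac4, a repressor of hypertrophic genes.

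Entries were taken from the deposited tables where the name ended exactly in hsa-mir-22. An entry is a distinct read sequence with its start on the human precursor, since the reads were aligned to human sequences. This gave 11 of the 5095 different entries over 3 tables. Of these, 2 started in the 5p arm and 9 in the 3p arm. The table for 1 h listed 7 of them, the table for 22 h listed 8 and the table of DOX 22 h with DOX 1 h listed all 11.

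The cells were ventricular cardiomyocytes of adult female Hartley guinea pigs, freed from the heart by enzymes, and the cells sat at room temperature in 10 µM doxorubicin (DOX), an anthracycline used against cancer, or in its vehicle DMSO. The labels give 12 libraries in 4 groups of 3, namely DMSO 1 h, DOX 1 h, DMSO 22 h and DOX 22 h, and they name no genetic change and no animal per library. Each table held an authors' mean over both of its groups and no value per library. In both tables that hold DOX 22 h, each usable mean came out as a weighted sum of whole reads from just 2 libraries (1323 of 1323 entries at 22 h and 2369 of 2369 in the other table). Names of predicted miRNAs in these tables gave the first library of each group, so each group stood there as 1 library and no replicate error was available. For miR-22 the data therefore compare 1 DOX 22 h library with 1 DMSO 22 h library and with 1 DOX 1 h library, and the same DOX 22 h library serves in both comparisons. All intervals below are exact 95% Clopper-Pearson intervals and cover counting error only, reads without molecular identifiers not being independent molecules. At 1 h only the mean of DOX and DMSO could be used, so no effect of DOX at 1 h is given, and the time in culture and the time in DOX cannot be told apart between DOX 22 h and DOX 1 h.

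The sequences below are shown since every comparison rests on which of them was counted. The first 6 bases are in capitals. In both arms they belong to the seed of the human miRNA, and the entries open inside the mature sequence as it is known in human, without its first bases. This is not particular to miR-22, as entries of hsa-mir-26a-1, hsa-let-7c and hsa-mir-191 also open without the first bases. The lengths in the names below are those of the entries and not of the mature miRNA.

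5p 20-base: TTCTTCagtggcaagcttta
5p 19-base: TTCTTCagtggcaagcttt
3p 20-base: GCTGCCagttgaagaactgt
3p 18-base: GCTGCCagttgaagaact
3p 17-base: GCTGCCagttgaagaac
3p 16-base: GCTGCCagttgaagaa
3p 15-base: GCTGCCagttgaaga
3p 16-base + 4 T: GCTGCCagttgaagaatttt
3p 16-base + 5 T: GCTGCCagttgaagaattttt
3p 16-base + 4 other: GCTGCCagttgaagaattat

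Both 5p forms started at position 16 of the precursor, as the names number it, and differed by 1 base at the 3′ end. Of the 9 entries of the 3p arm, 8 started at position 54, and 4 of these were the 20-base form shortened at its 3′ end by 2, 3, 4 or 5 bases. The remaining entries with this start kept the first 16 bases of the 20-base form and then left it. Counted from 1 at the 5′ end of the 20-base form, the forms named with 4 T and 5 T carried C17T and G19T, and the form named "4 other" carried C17T and G19A. The entry left over was 21 bases long, started at position 53 and shared its last 19 bases with the 20-base form (gcctgccagttgaagaactgt). It had 0 reads in DOX 22 h and 2 reads in DOX 1 h, too few for a ratio. The form with 5 T, listed only with DOX 1 h, had 5 reads in DOX 22 h and 6 in DOX 1 h, and the form named "4 other" had a mean of 6.24 there, with 2 possible splits of its reads.

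miR-22-3p was by far the more abundant arm in every table. The summed authors' mean, in reads divided by size factors, was 16587 for 3p and 450.0 for 5p at 1 h, a ratio of 36.9. At 22 h the sums were 14152 and 293, a ratio of 48.2, and in the table of DOX 22 h with DOX 1 h they were 18496 and 421, a ratio of 44.0. The 5p arm thus made up 2.64%, 2.03% and 2.22% of the miR-22 mean in these tables. The tables were normalised separately, so levels were compared within a table only.

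Within the 3p arm the 20-base form held nearly the whole mean. Its share was 97.0% at 1 h, 97.1% at 22 h and 97.2% in the table of DOX 22 h with DOX 1 h, with means of 16086, 13744 and 17978. The 18-base form came next with means of 321, 269 and 321, which is 1.93%, 1.90% and 1.74% of the arm. Shares fell with each further base lost, to 0.75%, 0.61% and 0.64% for 17 bases and 0.14%, 0.13% and 0.11% for 16 bases. The 15-base form had a mean of 10.3 at 22 h and 11.6 in the table of DOX 22 h with DOX 1 h. No entry of 19 bases was listed for miR-22-3p in any table, so the series of lengths had a gap 1 base below its main form. An entry 1 base shorter than the main one, with the same start, was listed in 35 of the 46 precursor arms at least as abundant as miR-22-3p at 1 h, in 32 of 43 at 22 h and in 30 of 41 in the other table.

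**Figure D1:**
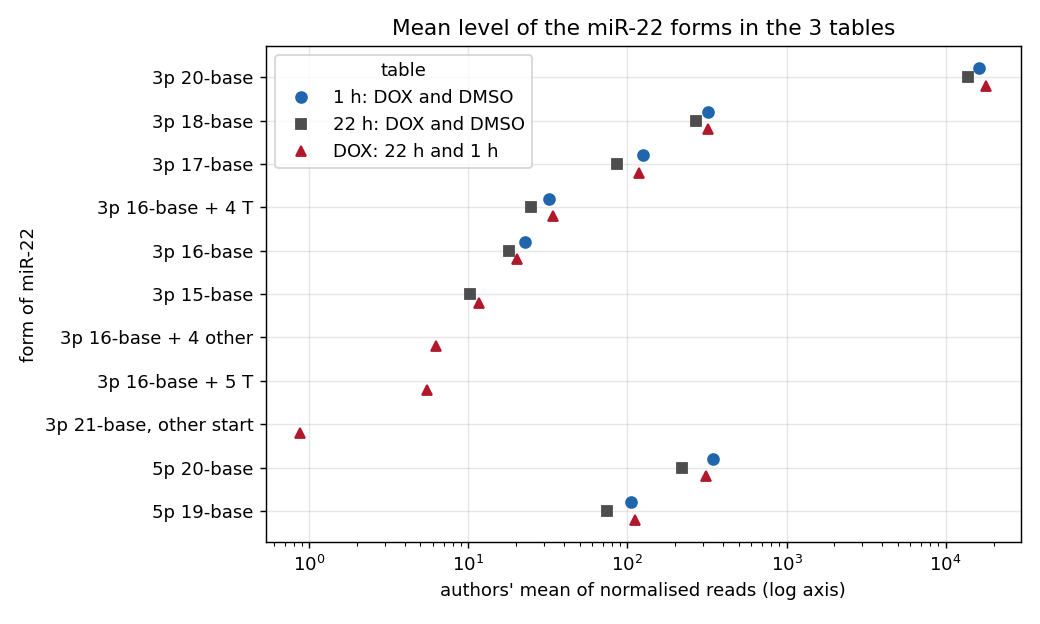
The authors' mean of normalised reads of each miR-22 form (log axis) in the tables of 1 h, 22 h and DOX 22 h with DOX 1 h, 1 point per form and table, with no error since the tables give only means. The 20-base 3p form lies between 13744 and 17978, and the next forms of either arm lie below 350.

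The form named 16-base + 4 T had means of 32.3, 24.9 and 34.0 in these tables, above the 16-base form with 22.8, 18.0 and 20.3. It is as long as the 20-base form and differs from it only by C17T and G19T. Its sequence alone therefore does not tell a T tail on a shortened form from these substitutions. Entries that can be read as a shortened form with at least 4 T added were rare among the 2325 entries of known precursors in the table of DOX 22 h with DOX 1 h. There were 4 such entries, from 3 of 427 precursor arms, and 2 of the 4 were miR-22-3p. The minimum of 4 T is that of the miR-22 form itself, so the presence of miR-22-3p in this count was fixed in advance. Shorter tails were not counted, so the count does not show T tails to be particular to miR-22. How these ends arose was not tested.

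Of the 5p arm, the 20-base form had 246 reads in DOX 22 h, 195 in DMSO 22 h and 386 in DOX 1 h. The 19-base form had 93, 57 and 132 reads in the same order. Before scaling, both forms had their most reads in DOX 1 h and their fewest in DMSO 22 h. The recovered totals had the same order, with 623625 reads in DOX 1 h, 474736 in DOX 22 h and 440362 in DMSO 22 h. The 19-base form held 27.4% (22.8% to 32.5%), 22.6% (17.6% to 28.3%) and 25.5% (21.8% to 29.5%) of the 5p reads, intervals that overlap.

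Divided by the size factors of their table, the summed 5p reads were 320 in DOX 22 h and 267 in DMSO 22 h. The passenger arm was thus 1.20-fold higher in the DOX 22 h library, a log2 ratio of 0.26 (0.02 to 0.50). Against DOX 1 h the summed 5p reads were 384 in DOX 22 h and 457 in DOX 1 h, a log2 ratio of -0.25 (-0.45 to -0.05). Neither ratio reached the limit of 0.8 that the study set for fold changes, and without replicate libraries these differences have no error beyond counting.

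The 3p forms other than the 20-base one gave reads that could be read singly. The 18-base form had 294 reads in DOX 22 h, 245 in DMSO 22 h and 350 in DOX 1 h. For the 17-base form the reads were 112, 63 and 126. The 16-base form had 18, 18 and 23 reads, and the form named 16-base + 4 T had 28, 22 and 41. The 15-base form had 15, 6 and 7 reads and was the only form of these with its most reads, before scaling, in DOX 22 h. Of the reads of these 5 forms, the 18-base form took 62.96% (58.4% to 67.3%) in DOX 22 h, 69.2% (64.1% to 74.0%) in DMSO 22 h and 64.0% (59.8% to 68.0%) in DOX 1 h. The 17-base form took 24.0% (20.2% to 28.1%), 17.8% (14.0% to 22.2%) and 23.0% (19.6% to 26.8%) in the same order, so that DMSO 22 h had the largest share of the longer form and the smallest of the shorter one, with intervals that overlap.

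**Figure D2:**
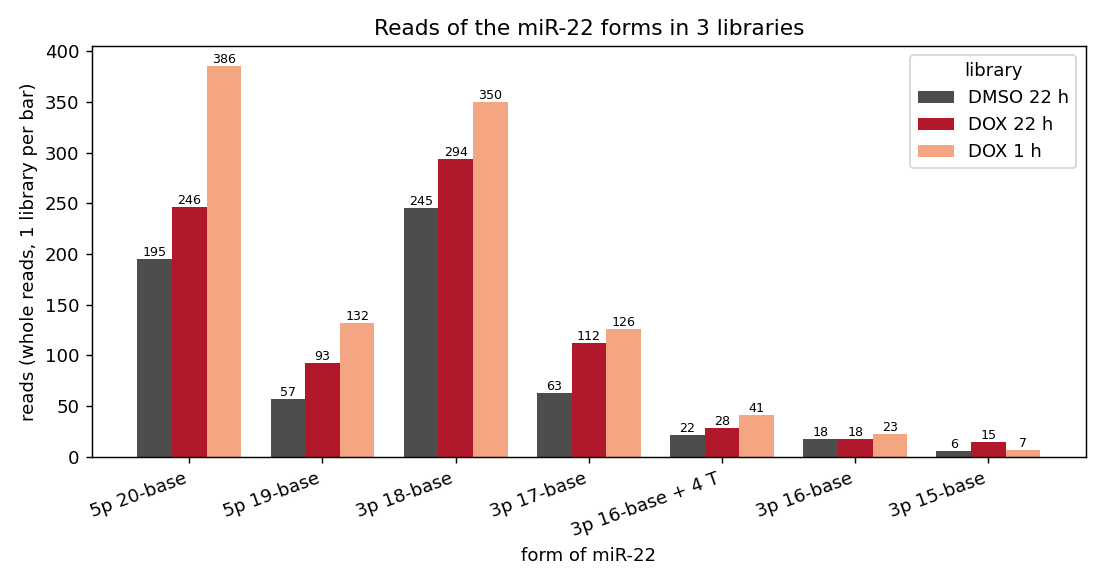
Whole reads of the miR-22 forms (vertical axis, from 0) in the DMSO 22 h, DOX 22 h and DOX 1 h libraries, 1 bar per library and form and no replicate error. The 20-base 5p form and the 18-base 3p form have the most reads, and the 15-base 3p form has 15 reads in DOX 22 h against 6 and 7.

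Summed over these 5 forms, the less abundant 3p reads were 467 in DOX 22 h and 354 in DMSO 22 h, a log2 ratio of 0.23 (0.03 to 0.43) after scaling. Against the 547 reads of DOX 1 h the log2 ratio was 0.13 (-0.05 to 0.32). At 22 h both sums were higher in the DOX library, by 0.26 for 5p and 0.23 for these 3p forms on the log2 scale. In DOX 22 h against DOX 1 h the point values had opposite signs, -0.25 for 5p and 0.13 for 3p. Among the 5p and less abundant 3p reads together, the 5p share was 42.1% (38.6% to 45.6%) in DOX 22 h, 41.6% (37.6% to 45.6%) in DMSO 22 h and 48.6% (45.6% to 51.7%) in DOX 1 h. The DOX 1 h library stood above both 22 h libraries in this share, which leaves out the 20-base 3p form. Its interval overlaps that of DMSO 22 h at the end and lies only just above that of DOX 22 h. The study lists miR-425-5p and miR-136-5p as higher and miR-378c-5p as lower with DOX at 22 h. The entries with those sequences went the other way in the reads solved here. In DOX 22 h and DMSO 22 h, the entry with the listed sequence of miR-425-5p had 13 and 63 reads. That of miR-136-5p had 5 and 38 reads, and that of miR-378c-5p 18 and 6. These are single entries and do not give the level of the whole miRNA. The most abundant entry of miR-425-5p had nearly equal reads in both libraries. Another entry of miR-136-5p had more reads in DOX 22 h, and so had other entries of miR-378c-5p. The signs given here should therefore not be joined to the study's signs, and the reason was not tested. Other miRNAs listed there were not compared by their listed sequence. One of them, miR-24-1-5p, is listed as lower, and its summed arm had a log2 ratio of 0.18 in DOX 22 h over DMSO 22 h, as given below.

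By form, the DOX 22 h over DMSO 22 h log2 ratios ran from -0.17 for the 16-base 3p form (-1.20 to 0.86) to 1.08 for the 15-base 3p form (-0.29 to 2.81). The 17-base 3p form had 0.66 (0.20 to 1.13) and the 18-base 3p form 0.09 (-0.16 to 0.34). Of the 5p forms, the 20-base one had 0.17 (-0.11 to 0.44) and the 19-base one 0.53 (0.05 to 1.04). Against DOX 1 h, the lowest ratio among forms with at least 10 reads was that of the 20-base 5p form, -0.29 (-0.52 to -0.05). The highest was again that of the 15-base 3p form, 1.41 (0.08 to 3.0).

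Past an absolute log2 ratio of 0.8 with at least 10 reads over both libraries stood 1 of 7 miR-22 forms in DOX 22 h against DMSO 22 h and 1 of 8 in DOX 22 h against DOX 1 h, in both the 15-base 3p form. Over all entries with whole reads the share past this limit was 17.7% (215 of 1216) in the first comparison and 13.5% (180 of 1330) in the second. The count for miR-22 lay close to these shares.

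**Figure D3:**
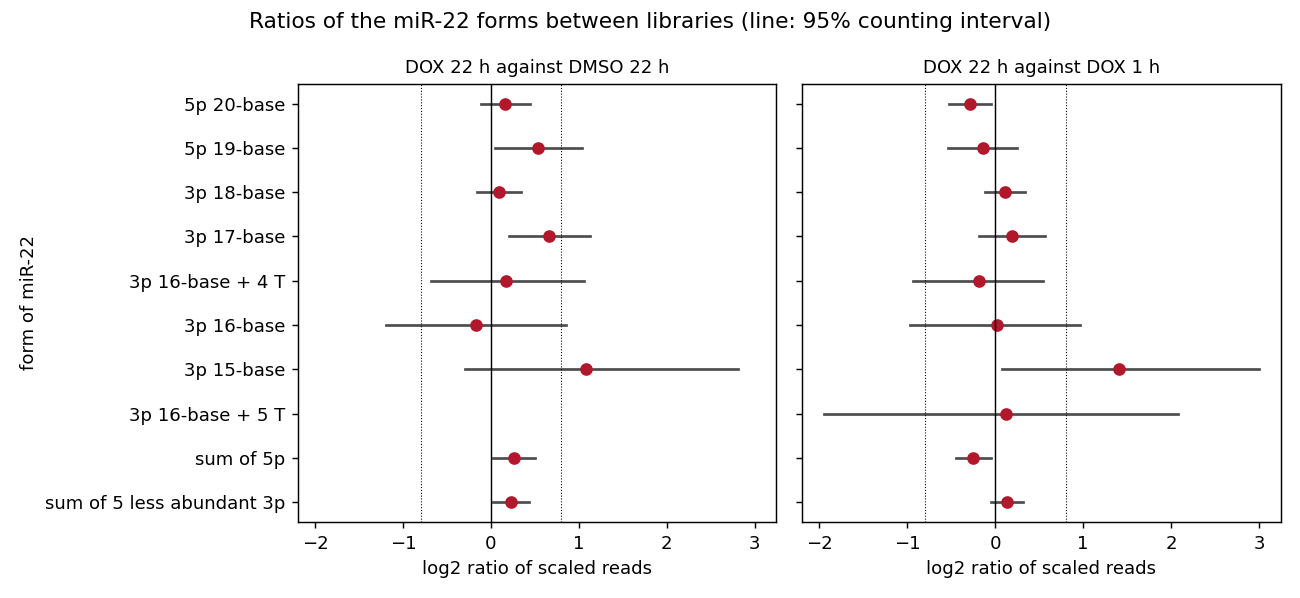
Log2 ratios of scaled reads of the miR-22 forms (horizontal axis) for DOX 22 h over DMSO 22 h and DOX 22 h over DOX 1 h, with 95% counting intervals as lines and the limits of -0.8 and 0.8 dotted, 1 library per side. Only the 15-base 3p form, at 1.08 and 1.41, lies past a limit, with the widest interval but for the 5 T form.

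The reads of the 20-base 3p form, which decide the level of miR-22-3p, could not be read singly. With larger numbers, several pairs of whole reads give the same mean, and 5 triples solved both tables. DOX 22 h, DMSO 22 h and DOX 1 h had 4493, 21926 and 34993 reads in the first triple and 10247, 16809 and 27595 in the second. The third triple had 16001, 11692 and 20197 reads. Another triple had 21755, 6575 and 12799 reads, and the last had 27509, 1458 and 5401 reads. The means fit each of the 5, and none was chosen. The authors' fold change columns of the same tables could pick among the triples but hold the authors' own comparisons and were set aside, so the ranges below describe what the means alone allow.

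The matching log2 ratios of DOX 22 h over DMSO 22 h were -2.46, -0.88, 0.28, 1.56 and 4.07. Those of DOX 22 h over DOX 1 h were -2.60, -1.07, 0.03, 1.13 and 2.71. As a scale for these values, 484 entries with a mean of at least 100 in both tables and a single solution had ratios from -1.72 to 1.14 at 22 h, with a median of -0.02, and from -0.71 to 1.10 against DOX 1 h, with a median of -0.01. At 22 h, 93 of the 484 lay at or beyond the third triple, 9 at or beyond the second and 0 as far out as the others. In DOX 22 h against DOX 1 h, 217 lay at or beyond the third and 0 as far out as any of the others. These entries are the less abundant ones, so they are a scale and not a test of the 20-base form. The level of miR-22-3p in DOX 22 h against either library thus ran from lower to higher over the triples, and the means used here did not settle its direction.

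**Figure D4:**
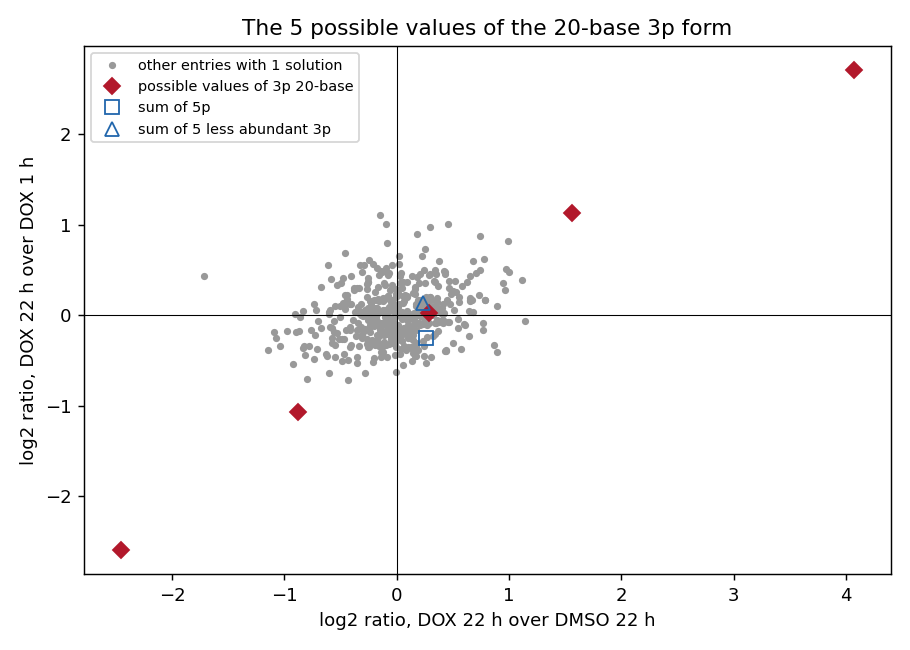
Log2 ratios of DOX 22 h over DMSO 22 h (horizontal) and of DOX 22 h over DOX 1 h (vertical), with grey points for the entries with a single solution and a mean of at least 100, diamonds for the 5 possible values of the 20-base 3p form, and open marks for the sums of 5p and of the less abundant 3p forms. The third diamond, at 0.28 and 0.03, lies among the grey points and beside the less abundant 3p sum at 0.23 and 0.13, and the others lie outside the cloud.

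The arm share per library moved with the triple in the same way. With the third triple the 5p arm made up 2.02% of miR-22 reads in DOX 22 h, 2.05% in DMSO 22 h and 2.44% in DOX 1 h. Over all 5 it ran from 1.20% to 6.40% in DOX 22 h, from 1.12% to 12.2% in DMSO 22 h and from 1.44% to 8.01% in DOX 1 h. In each of the triples miR-22-3p remained the more abundant arm of every library.

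Set among all miRNAs, miR-22 was of middling to high abundance in these cells. It took 0.290%, 0.302% and 0.315% of the sum of all means in the same tables. miR-22-3p ranked 46 of 346 precursor arms at 1 h, 43 of 319 at 22 h and 41 of 427 in the table of DOX 22 h with DOX 1 h, by the summed mean. At 1 h it lay between the 5p arm of hsa-mir-191 with 16840 and that of hsa-mir-30c-1 with 15599. The neighbours at 22 h were hsa-mir-335 with 14420 and hsa-mir-30b with 14029, also in their 5p arms. In the other table they were the 5p arm of hsa-mir-126, an endothelial miRNA, with 18672 and an arm of hsa-mir-181a-2 with 16296. These levels differ by little from that of miR-22-3p, and the tables give no error to order them by. miR-22-5p ranked 156, 161 and 157 in the same tables. No other tissue was sequenced, so the description of miR-22 as enriched in muscle could not be checked here.

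As a set, heart markers were high in the same table of DOX 22 h with DOX 1 h. The 5 cardiomyocyte miRNAs (mir-1, mir-133a, mir-208a, mir-208b, mir-499a) were all present and made up 37.1% of all means. In these sums the same sequence was counted under each copy of its precursor. Their summed means ran from 3216 to 1.33e+06, so the share does not describe each of them. Both smooth muscle miRNAs (mir-143, mir-145) made up 19.8%, the endothelial mir-126 made up 3.24% and the fibroblast pair (mir-199a, mir-214) 0.197%. The red cell pair (mir-451a, mir-144) and the leukocyte pair (mir-142, mir-223) were listed at 0.00273% and 0.00650%, so no defining marker was at 0. Markers of other cell types were thus among the reads, and their part in the miR-22 values was not tested. The marker mir-144 had 20 reads in DOX 22 h, 9 in DMSO 22 h and 7 in DOX 1 h and was the only marker past 0.8, at log2 ratios of 0.94 and 1.81. These ratios rest on few reads and were given no interval. Over all 194 miRNAs summed in the same way, 10.8% were past 0.8 at 22 h and 6.70% against DOX 1 h.

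Other miRNAs of heart and muscle were summed per miRNA over the entries that could be read singly. Over all 194 miRNAs summed in this way, 10.8% (21) were past 0.8 in DOX 22 h against DMSO 22 h and 6.70% (13) in DOX 22 h against DOX 1 h, with medians of 0.01 and -0.01. Of 8 heart and muscle miRNAs, 0 were past 0.8 in either comparison, with medians of -0.08 at 22 h and 0.09 against DOX 1 h. Of 13 miRNAs tied to hypertrophy, 1 was lower at 22 h and 0 were past the limit against DOX 1 h, with medians of -0.11 and -0.09. The lower one was mir-212, which lies in a cluster with mir-132, with 66 reads in DOX 22 h and 115 in DMSO 22 h, a log2 ratio of -0.97. With so few members, counts of 0 and 1 lie near these shares. miR-22-5p, at 0.26 and -0.25, was not set apart from these lists by any test.

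Among 162 precursor arms with a mean of at least 100 and whole reads for each entry, the 3 nearest to miR-22-5p in both ratios were the 3p arms of hsa-mir-145 and hsa-mir-214 and the 5p arm of hsa-mir-24-1. Their log2 ratios were 0.24 and -0.27 for hsa-mir-145, 0.25 and -0.18 for hsa-mir-214 and 0.18 and -0.28 for hsa-mir-24-1, in the order DMSO 22 h and DOX 1 h. The largest difference from miR-22-5p in either ratio was 0.03, 0.07 and 0.08. Likeness was measured over 2 comparisons of 3 libraries that share DOX 22 h.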

How the data were processed

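Small RNA of the 12 libraries was sequenced on an Illumina instrument from TruSeq libraries. The authors processed reads in BaseSpace Small RNA 1.0, aligned to human sequences (hg19 in the submitters' processing notes), and compared groups with DESeq2, whose version is not given in the sources used here. The deposited mean is a signal, namely reads divided by size factors and averaged over both groups of a table. In other columns the authors list log2 fold changes with standard errors, p-values, adjusted p-values, a status and a mean for each side re-expressed through the fold change. These columns hold the authors' own comparisons and were not used, also where they could have picked among several solutions of a mean. The number of columns of values per sample was 0.

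Means at 1 h and 22 h stood without a decimal mark. The power of 10 was restored from the same entry in the third table, in 1506 of 1610 and 1323 of 1335 entries, and entries without one were not used. Whole reads of DOX 22 h, DMSO 22 h and DOX 1 h were solved from the means of both tables with DOX 22 h. The best assignment of weights solved 1089 of 1089 entries tried and the next best 143. Of 1323 entries in both tables, 1216 had a single solution and were used, with totals of 474736 reads in DOX 22 h, 440362 in DMSO 22 h and 623625 in DOX 1 h. These totals leave out the most abundant entries and are not library depths, and the sums of all means were 5874898 (1 h), 4776593 (22 h) and 6005178 (DOX 22 h with DOX 1 h). The size factors were 1.06 and 0.943 at 22 h, and 0.882 and 1.13 in the other table. On simulated data for both comparisons, 1299 of 1300 entries had a single solution and 1299 of these were right. The simulation was given the true weights and drew entries at lower levels than the most abundant ones here. It therefore did not test the choice of weights or the recovery of the most abundant entries.

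Arms were split where starts lay more than 15 bases apart. Ratios were log2 of scaled reads with 0.5 reads added, and members were called past 0.8 with at least 10 reads. No count model was fitted: with 1 library a group there is no replicate error and no test, although tests had been planned for values per library. Named forms were, per arm, the 3 highest in mean, those past 0.8 and the highest and lowest ratio, with the other entries given by value or count. Non-members were the neighbours in rank and the 3 arms most like miR-22, taken for miR-22-5p since miR-22-3p had no single value, and mir-144 and mir-212 were named after their values were seen. The members and lists were chosen with earlier results of these data known. Python 3.11.15, numpy 2.4.6, scipy 1.17.1 and matplotlib 3.10.9 were used.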

Additional observations from a re-analysis of the deposited data

How the results depend on the processing

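The log2 ratios of summed miR-22-5p and of the less abundant 3p forms stayed inside their counting intervals under scaling by recovered totals, a pseudocount of 1, the most abundant entry alone, entries in all 3 tables and means of at least 10. Without a minimum of reads, 2 entries of miR-22 were past 0.8 in DOX 22 h against DOX 1 h, against 1 with it, the added one resting on 0 and 2 reads. Over all entries a limit of 1 left 133 of 1216 past it in DOX 22 h against DMSO 22 h, against 215, and 104 of 1330 in DOX 22 h against DOX 1 h, against 180. With no minimum of reads the counts were 215 of 1216 and 529 of 1788, the second over more entries. The rank of miR-22-3p by the most abundant entry of each arm was 33, 31 and 30 in the tables of 1 h, of 22 h and of DOX 22 h with DOX 1 h, and counting each sequence once it was 36, 34 and 33. With entries in all 3 tables the 20-base share of 3p was 97.2% at 22 h and 97.3% for DOX 22 h with DOX 1 h, where means of at least 10 gave 97.3%, and the 5p share there was 2.23%. The 3p ratios without the 20-base form, the means in place of shares and ranks per library, and the likeness to miR-22-5p were chosen after seeing the data. The count of T tails was not planned either. Planned values for summed miR-22-3p, and for arm share, main-form share and rank in single libraries, could not be given as single values from the means used here, since 5 triples of reads fit the 20-base form and the authors' fold change columns, which could pick among them, were not used. No replicate was left out, as each group is 1 library in these tables. No paired analysis was possible because the tables hold 1 library a group or a mean over both groups.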
